A study of Triticum aestivum with 3 samples.

Results

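The microRNA families miR397, miR398, miR408 and miR528 were followed in degradome libraries from leaves of wheat (Triticum aestivum) seedlings. Their members are all lines of the deposited tables whose small RNA name has miR or MIR followed by exactly one of these family numbers. The rule found 76 of 12450 pairs of small RNA and transcript, of which 24 belonged to miR397, 22 to miR398, 29 to miR408 and 1 to miR528. Many of these lines list the same reads again for a related small RNA or a homeologous transcript. With lines that hold the same reads counted once, the 76 lines formed 26 degradome signals of 4574 in all, 12 for miR397, 6 for miR398, 7 for miR408 and 1 for miR528. Together they held 352 of 55312 reads (0.636%).

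Leaves were sampled after 2 days in 3 treatments, dithiothreitol (DTT) together with tauroursodeoxycholic acid (TUDCA), DTT alone, and a control. DTT is a reductant that breaks disulphide bonds and so disturbs protein folding in the endoplasmic reticulum, and TUDCA, a bile acid, is given as a chemical chaperone that eases such stress. Each treatment is 1 deposited sample whose tables hold 3 library columns, which were read as the independent biological replicates that the study's design names. Every SD and p-value rests on that reading. Cultivar and doses are not stated in the labels. The study set out to identify transcripts targeted by microRNAs under endoplasmic reticulum stress. Both treatments were set against the same 3 control libraries, so their comparisons with the control are not independent of each other.

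The 4 families are known as copper microRNAs. In Arabidopsis, copper shortage induces miR397, miR398 and miR408, which target transcripts of copper proteins and so spare copper for plastocyanin in photosynthesis. The classical targets are copper/zinc superoxide dismutases and their copper chaperone for miR398, laccases for miR397, plantacyanin and laccases for miR408, and, in rice, ascorbate oxidase for miR528, a family of monocots. Slicing by a microRNA leaves a downstream fragment with a 5′ monophosphate, and degradome sequencing reads the 5′ ends of such fragments. A read count at a pair therefore depends on the transcript's abundance as well as on slicing, which the tables used here do not separate. A degradome read marks 1 fragment end, so values were not divided by transcript length.

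The family number in the name was all that placed a line in its family. Of the 76 lines, 10 carried wheat (tae) names, and the others carried names from other species, many with suffixes that the files do not explain. In miR397, 23 of 24 lines belonged to a small RNA named after a precursor, atr-MIR397a-p3_2ss15AT18GT. In miR398, 4 of 22 lines were named after a precursor, and in miR408 2 of 29. The 45 transcripts matched 0 entries of the RefSeq gene table, so none could be named as a superoxide dismutase, a laccase or another copper protein. No transcript was listed for more than 1 of the 4 families.

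The libraries held between 11253643 and 13006162 reads each. Values are given per 10M library reads, with the raw reads beside them for weak signals. Summed over all signals, reads lay at 5076, 5713 and 5870 per 10M in DTT with TUDCA, at 5587, 4889 and 3700 in DTT, and at 4057, 4741 and 4559 in the control. DTT replicate 3 was the lowest of the 9 libraries on this measure. Depth per signal was low: 4 of the 26 member signals had 10 reads or more over the 9 libraries, 18 had 3 reads or fewer, and 10 rested on a single read.

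miR398 held 237 reads, the most of the 4 families as merged here. That rank depends on the merging: miR397, with 92 reads here, held 316 with lines merged at 5% and 424 with only identical lines merged, settings that left miR398 at 237. Its reads were concentrated in 2 signals on chromosome group 2. The stronger one lay on a single transcript of arm 2AL (Traes_2AL_8123ADD82), with 132 reads listed for both ath-miR398b-3p_1ss20TG and ppe-miR398a-3p_2ss15GA20TG. The other lay on transcripts of 2AS, 2BS and 2DS, with the same 97 reads listed in 14 lines for 5 small RNAs, among them tae-miR398. The authors' second read number divided its raw reads by 3, which equals its number of transcripts, and left those of the 2AL signal undivided. The 2AL signal ranked 47th and the 2AS, 2BS and 2DS signal ranked 67th by reads among all signals, and both had reads in all 9 libraries.

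The 2AL signal of miR398 stood at 15.6, 23.8 and 20.7 reads per 10M in DTT with TUDCA, at 15.1, 11.2 and 5.43 in DTT, and at 4.78, 5.66 and 1.78 in the control. All 3 libraries of DTT with TUDCA lay above all control libraries, and DTT replicate 3 lay within the control range. The 2AS, 2BS and 2DS signal stood at 8.59, 12.3 and 18.3 reads per 10M in DTT with TUDCA, at 15.1, 9.58 and 1.55 in DTT, and at 5.58, 4.04 and 1.78 in the control. Again DTT with TUDCA lay above the control throughout. DTT replicate 3 was the lowest library per 10M, although it and control replicate 3 held 2 reads each.

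**Figure D1:**
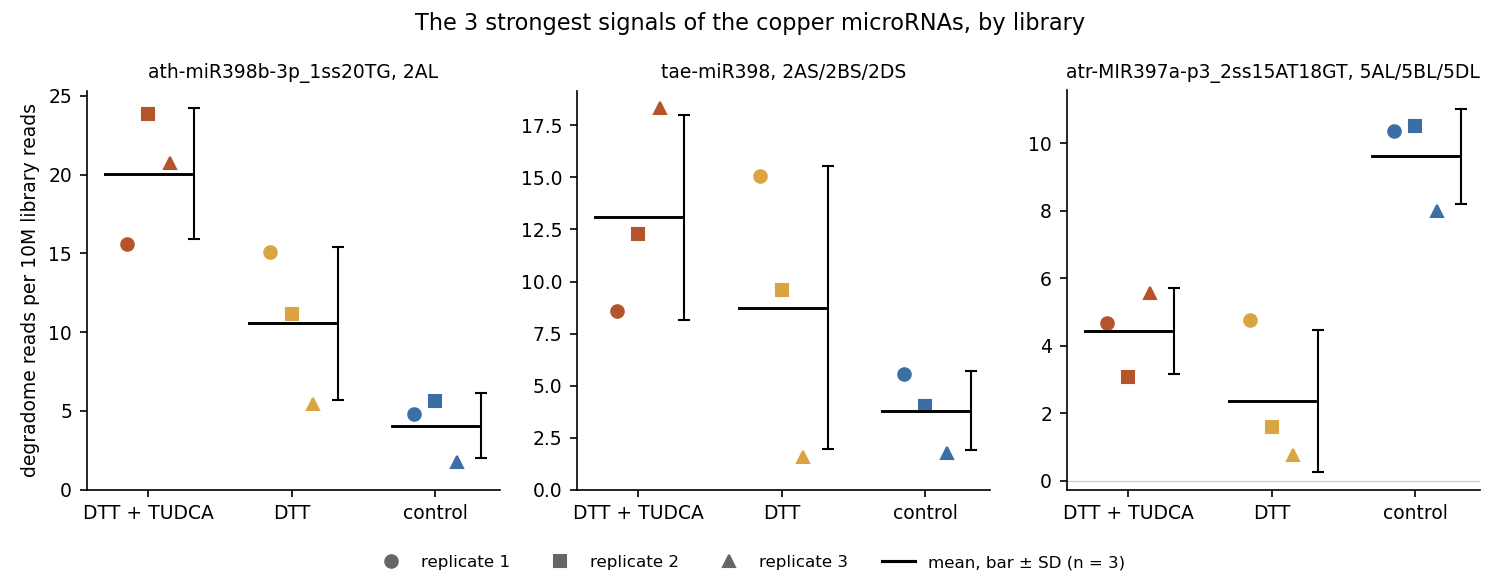
Degradome reads per 10M library reads (vertical axes, a separate scale in each panel) of the 3 strongest signals in DTT with TUDCA, DTT and control. Each point is 1 library, lines are means and bars ± SD (n = 3). Both miR398 signals lie higher in all 3 libraries of DTT with TUDCA than in the control, and the atr-MIR397a-p3_2ss15AT18GT signal lies lower in all 6 treated libraries.

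Between DTT with TUDCA and the control, both tested miR398 signals rose. The 2AL signal averaged 20.1 ± 4.15 reads per 10M in DTT with TUDCA and 4.07 ± 2.04 in the control (SD, n = 3 each), a log2 fold change of 2.25 (SE 0.49, 95% interval 1.29 to 3.22, adjusted p = 0.000425, edgeR quasi-likelihood test with Benjamini-Hochberg adjustment over 166 signals). The 2AS, 2BS and 2DS signal averaged 13.1 ± 4.92 in DTT with TUDCA and 3.80 ± 1.91 in the control (SD, n = 3 each), a log2 fold change of 1.74 (SE 0.54, 95% interval 0.67 to 2.81, adjusted p = 0.0212, edgeR). In this comparison the test called 9.64% of all tested signals, with 8.43% of the tested signals higher, and the groups did not overlap, with the treated side higher, in 16.3%. Relative to the median log2 fold change over all 166 signals, which was 0.30, the 2AL signal stood at 1.95 and the other at 1.43. The authors' deposited table gives log2 ratios of mean signal of 2.30 for the 2AL line and 1.78 for the tae-miR398 line on 2BS.

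The call of the 2AL signal held in all 14 other settings tried, with adjusted p in edgeR and DESeq2 between 0.000214 and 0.0290. The call of the 2AS, 2BS and 2DS signal was lost with TMM scaling (adjusted p = 0.0843), median centring (0.0807), DESeq2 (0.135), no filter on low counts (0.521) and 1 fit of all 9 libraries (0.0837), and without replicate 2 (0.0829) or 3 (0.303) of DTT with TUDCA or replicate 2 (0.121) or 3 (0.171) of the control.

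Between DTT alone and the control, neither miR398 signal passed the test. The 2AL signal averaged 10.6 ± 4.86 reads per 10M in DTT and 4.07 ± 2.04 in the control (SD, n = 3 each; log2 1.34, SE 0.74, 95% interval -0.11 to 2.79, adjusted p = 0.342, edgeR). The 2AS, 2BS and 2DS signal averaged 8.74 ± 6.81 in DTT and 3.80 ± 1.91 in the control (SD, n = 3 each; log2 1.17, SE 0.78, 95% interval -0.38 to 2.71, adjusted p = 0.499, edgeR). The test called 3.21% of 156 signals here. Without DTT replicate 3, the lowest DTT library in both, the log2 fold change was 1.65 for the 2AL signal (adjusted p = 0.265, edgeR) and 1.66 for the other (adjusted p = 0.287). Without DTT replicate 1, the highest DTT library in both, it was 1.00 for the 2AL signal (adjusted p = 0.585, edgeR) and 0.52 for the other (adjusted p = 0.845).

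Adding TUDCA to DTT gave no called difference in miR398 either. The 2AL signal averaged 20.1 ± 4.15 reads per 10M in DTT with TUDCA and 10.6 ± 4.86 in DTT (SD, n = 3 each; log2 0.92, SE 0.47, 95% interval -0.07 to 1.92, adjusted p = 0.752, edgeR). Its lowest library of DTT with TUDCA, at 15.6, lay just above the highest DTT library, at 15.1, and 12.8% of all tested signals showed this order without overlap. The 2AS, 2BS and 2DS signal averaged 13.1 ± 4.92 in DTT with TUDCA and 8.74 ± 6.81 in DTT, with overlapping libraries (SD, n = 3 each; log2 0.58, SE 0.60, 95% interval -0.68 to 1.84, adjusted p = 0.801, edgeR). The test called 1.07% of 187 signals. Without DTT replicate 3 the log2 fold change was 0.61 for the 2AL signal (adjusted p = 0.898, edgeR) and 0.08 for the other (adjusted p = 0.986). Without DTT replicate 1 it was 1.27 for the 2AL signal (adjusted p = 0.240, edgeR) and 1.22 for the other (adjusted p = 0.404).

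**Figure D2:**
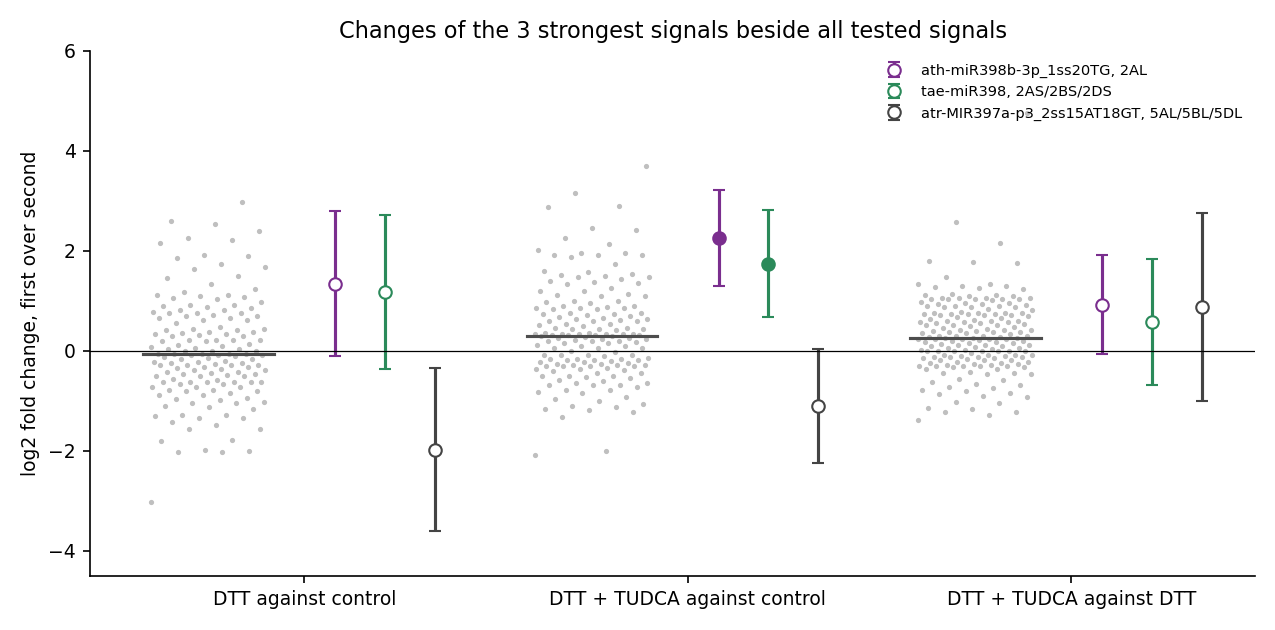
Log2 fold changes (vertical axis, first treatment over second) of the 3 strongest signals with 95% intervals, filled where the adjusted p was under 0.05. Grey points are all signals tested in that comparison and grey lines their medians. The 2 miR398 signals are called in DTT with TUDCA against control, at 2.25 and 1.74, and the atr-MIR397a-p3_2ss15AT18GT signal lies below 0 in both comparisons with the control.

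The 2 miR398 signals followed each other closely from library to library, a comparison chosen after the values were seen. Over the 9 libraries Pearson's r was 0.863 (exact permutation p = 0.00357) and Spearman's rho 0.80 (exact permutation p = 0.0138). The permutation moved libraries across treatments, so its p takes in the treatment difference that both signals shared. How often other pairs of signals reach such an r was not counted, so it cannot be called particular to miR398. Without replicates 2 and 3 of DTT with TUDCA, the libraries farthest from the median of the 2AL signal, r was 0.865. On deviations from the treatment means it was 0.805. The share of the 2AL signal in the reads of both was 61.2% ± 7.07 in DTT with TUDCA, 60.5% ± 15.1 in DTT and 51.5% ± 6.23 in the control (SD, n = 3 each), and the exact permutation p of DTT with TUDCA against the control was 0.2. The signals rest on different transcripts, and both draw on the same libraries and on ath-miR398b-3p_1ss20TG and ppe-miR398a-3p_2ss15GA20TG.

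The other 4 signals of miR398 held 8 reads in all, between 1 and 4 each. They belonged to sbi-MIR398-p3_2ss5GA18AG and ata-miR398g-5p, and 3 of them had reads in a single library. The strongest of the 4 had 1 read in DTT with TUDCA and 3 in DTT.

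Summed over its 6 signals, miR398 stood at 24.2, 38.4 and 39.1 reads per 10M in DTT with TUDCA, at 32.5, 20.8 and 6.98 in DTT, and at 12.0, 9.70 and 3.55 in the control. The family sum rose in DTT with TUDCA against the control, at 33.9 ± 8.41 in DTT with TUDCA and 8.40 ± 4.35 in the control (SD, n = 3 each; log2 1.98, SE 0.38, adjusted p = 0.00769, edgeR over 109 family sums). All 3 libraries of DTT with TUDCA lay above all control libraries, an order shown by 22.9% of the tested sums. In that comparison 11.0% of family sums were called, 10.1% of the tested sums being called higher, and the median log2 fold change of the sums was 0.40. The call held in 10 other settings. Leaving out library 3 of DTT with TUDCA ended it (adjusted p = 0.0544, edgeR). DTT alone, at 20.1 ± 12.8, was not called against the control (log2 1.23, SE 0.60, adjusted p = 0.402, edgeR), nor was DTT with TUDCA against DTT (log2 0.75, SE 0.41, adjusted p = 0.649, edgeR). By edgeR 0.0% of the family sums were called in each of these comparisons, with 15 of 105 for DTT against the control and 10 of 111 for DTT with TUDCA against DTT at an unadjusted p under 0.05. DESeq2 called 2 sums for DTT against the control and 0 for DTT with TUDCA against DTT, and miR398 was not among them. Without DTT replicate 3 the miR398 sum had an adjusted p of 0.0605 against the control (log2 1.64, edgeR) and of 0.754 for DTT with TUDCA against DTT (log2 0.35). Without DTT replicate 1 the values moved the other way, to an adjusted p of 0.682 against the control (log2 0.70, edgeR) and of 0.0967 for DTT with TUDCA against DTT (log2 1.29).

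**Figure D3:**
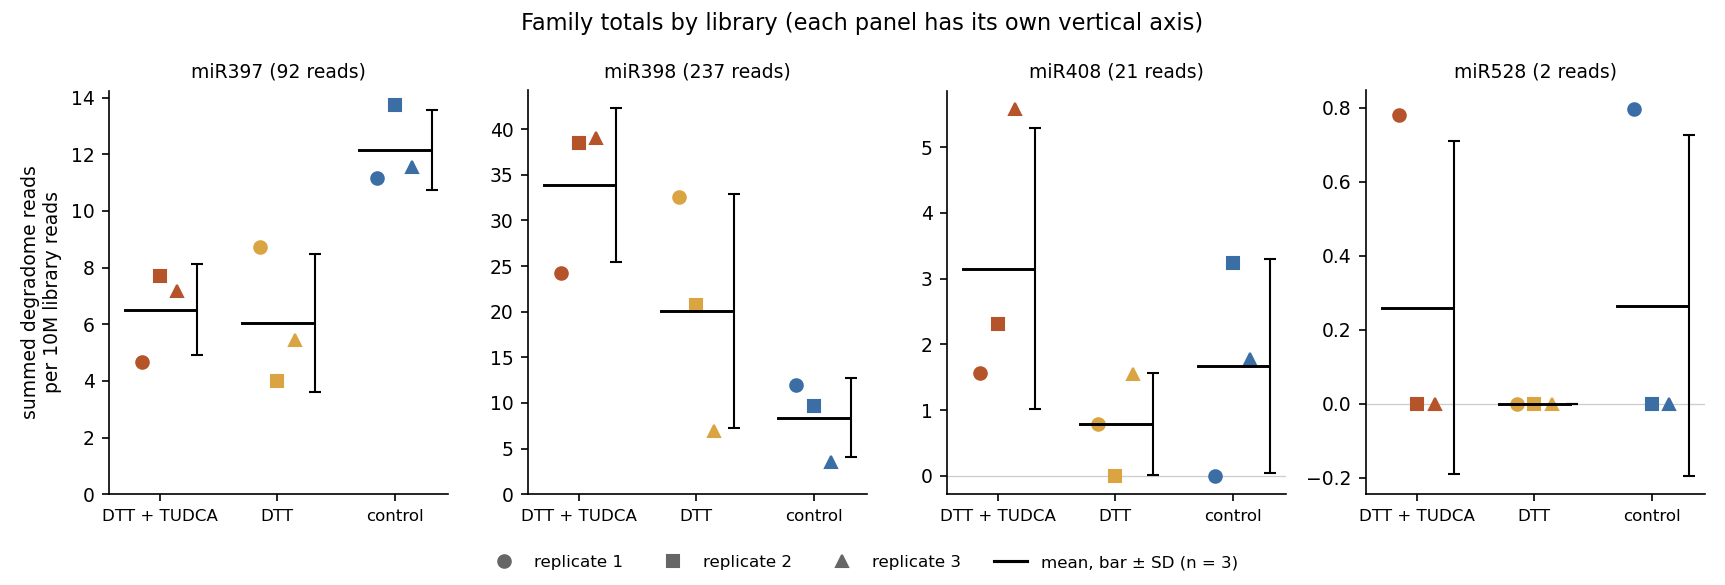
Summed degradome reads per 10M library reads (vertical axes, a separate scale in each panel) of the 4 families in DTT with TUDCA, DTT and control. Each point is 1 library, lines are means and bars ± SD (n = 3). In all libraries of DTT with TUDCA miR398 lies above and miR397 below the control, miR397 without passing the test, while miR408 and miR528 rest on 21 and 2 reads.

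miR397 held 92 reads, and 66.3% of them sat in 1 signal of atr-MIR397a-p3_2ss15AT18GT on 5AL, 5BL and 5DL. Its 7 lines name 7 transcripts with 49 to 61 reads each, and the authors' second number divided them by 8 to 10. The strongest line (Traes_5AL_9C5A73F10) stood at 4.68, 3.08 and 5.58 reads per 10M in DTT with TUDCA, at 4.76, 1.60 and 0.775 in DTT, and at 10.4, 10.5 and 8.0 in the control. All 6 treated libraries lay below all 3 control libraries. For DTT with TUDCA the order against the control was the opposite of that of the 2 miR398 signals, which overlapped with the control in DTT. The 5AL, 5BL and 5DL signal did not pass the test in any comparison.

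Against the control, the 5AL, 5BL and 5DL signal averaged 4.45 ± 1.27 reads per 10M in DTT with TUDCA and 9.62 ± 1.41 in the control (SD, n = 3 each; log2 -1.10, SE 0.57, 95% interval -2.24 to 0.03, adjusted p = 0.269, edgeR). In DTT alone it averaged 2.38 ± 2.11 (SD, n = 3; log2 -1.98, SE 0.82, 95% interval -3.60 to -0.35, adjusted p = 0.194, edgeR). Groups without overlap on the lower side made up 6.63% of tested signals for DTT with TUDCA and 12.2% for DTT. Between DTT with TUDCA and DTT the libraries overlapped (log2 0.88, SE 0.90, 95% interval -1.0 to 2.76, adjusted p = 0.801, edgeR). The change in DTT against the control was -2.92 without DTT replicate 1 (adjusted p = 0.0831, edgeR) and -1.57 without DTT replicate 3 (adjusted p = 0.377), and that of DTT with TUDCA against DTT was 1.83 (adjusted p = 0.462) and 0.47 (adjusted p = 0.986) without the same libraries. The authors' deposited table gives log2 ratios of -1.05 for DTT with TUDCA and -1.96 for DTT against the control on this line.

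The second miR397 signal, also of atr-MIR397a-p3_2ss15AT18GT, lay on 7AL and 7DS with 10 reads. It had 0, 0 and 1 reads in DTT with TUDCA, 0, 0 and 4 in DTT, and 0, 1 and 4 in the control, and did not pass the filter on low counts. Without that filter it was called in no comparison, with adjusted p in edgeR of 0.521 or more. Replicate 3 of each treatment held most of these reads. The other 10 miR397 signals had between 1 and 6 reads, and 7 of the 12 signals of the family had reads in a single library. The only miR397 line named after a mature microRNA, ath-miR397b on Novel10960, had 3 reads, 2 in replicate 2 of DTT with TUDCA and 1 in DTT replicate 2. It is singled out here after its values were seen.

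The miR397 sum stood at 4.68, 7.69 and 7.17 reads per 10M in DTT with TUDCA, at 8.73, 3.99 and 5.43 in DTT, and at 11.2, 13.7 and 11.6 in the control. All 6 treated libraries lay below the 3 control libraries. The log2 fold changes against the control, -0.89 (SE 0.40, adjusted p = 0.195) for DTT with TUDCA and -0.99 (SE 0.47, adjusted p = 0.374) for DTT, were not called by edgeR, and the exact permutation p was 0.1 in both, the smallest that 3 against 3 libraries allow. Lower sums without overlap made up 3.67% of the families tested for DTT with TUDCA and 5.71% of those tested for DTT. Merging lines at 5%, or only where identical, counts near-copies of the 5AL, 5BL and 5DL signal apart. Merged at 5%, the change was -0.99 for DTT with TUDCA (adjusted p = 0.0486, edgeR) and -1.57 for DTT (adjusted p = 0.0875). With only identical lines merged, it was -0.97 for DTT with TUDCA (adjusted p = 0.0557, edgeR) and -1.65 for DTT (adjusted p = 0.102). Between DTT with TUDCA and DTT the log2 fold change was 0.11 (SE 0.59, adjusted p = 0.974, edgeR), and its sign turned with TMM scaling (-0.17) and median centring (-0.10).

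miR408 held 21 reads in 7 signals. The strongest was on homeologous transcripts of 5AL, 5BL and 5DL, where the same 9 reads were listed in 15 lines for 5 small RNAs, led by aly-miR408-3p_1ss20GA. It had 0, 2 and 3 reads in DTT with TUDCA, 0, 0 and 2 in DTT, and 0, 0 and 2 in the control. At this depth a difference was not detectable: the ratio of DTT with TUDCA to the control was 2.36, with a counting interval from 0.386 to 24.8. The wheat-named tae-miR408_L-1 was listed on the same 3 transcripts with 1 further read, in DTT replicate 1, so its reads there are not those of the 5 other small RNAs.

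Among the remaining miR408 signals, aly-miR408-5p_L+1R-1 on 2DS had 5 reads, 4 of them in control replicate 2 and 1 in replicate 2 of DTT with TUDCA, and is named after its values were seen. The other 5 signals had 1 to 3 reads, each in 1 library. The family sum came to 2, 3 and 7 reads in DTT with TUDCA, 1, 0 and 2 in DTT, and 0, 4 and 2 in the control. Per 10M, all libraries of DTT with TUDCA lay above all DTT libraries, the nearest standing at 1.56 in DTT with TUDCA and 1.55 in DTT, with an exact permutation p of 0.1. These 2 libraries held 2 reads each. By the authors' normalized read number the groups overlapped, the same libraries standing at 1.17 in DTT with TUDCA and 1.55 in DTT. Among the families that could be tested, 15.3% showed this order. The ratio of DTT with TUDCA to DTT was 3.96 (counting interval 1.07 to 21.9), and miR408 passed the filter of no comparison. Without the filter the adjusted p for DTT with TUDCA against DTT was 0.720 (log2 1.87, SE 1.21, edgeR). PCR reads without molecular identifiers are not independent molecules, so counting intervals cover counting error only, not the spread between plants.

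miR528 was listed once, as ata-miR528-5p on a transcript of 4BL, with 1 read in replicate 1 of DTT with TUDCA, 0 in all 3 DTT libraries and 1 in control replicate 1. The 0 reads among 38.0M library reads of DTT allow up to 0.789 reads per 10M. That transcript was also listed with 20 reads for gra-MIR172a-p3_1ss7GA, a small RNA outside the 4 families. In all, 9 of the 45 transcripts were listed for 1 other small RNA as well, 4 of these for PC candidates, 4 for names of miR172 and 1 for a name of miR169.

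By mean level in DTT with TUDCA the families ranked miR398, miR397, miR408 and miR528, at places 32, 88, 124 and 209 of 244 family numbers in the tables. The order was the same in DTT, at places 42, 88, 169 and 199. In the control miR397 stood first at place 54, and miR398 followed at place 68, then miR408 at 143 and miR528 at 201, with no overlap between miR398 and miR408. As merged here, the libraries of miR398 and miR397 overlapped in DTT and in the control but not in DTT with TUDCA. Those of miR397 and miR408 overlapped in DTT with TUDCA only. Those of miR408 and miR528 did so in DTT and in the control, where both families had a library at 0. The overlaps with miR397 depend on the merging. Merged at 5%, miR397 reached 29.5 reads per 10M in DTT with TUDCA and overlapped with miR398, whose lowest library stood at 24.2. In the control miR397 then lay above miR398 throughout, and miR397 and miR408 overlapped in no treatment. With only identical lines merged, these overlaps were the same as at 5%.

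No pair of families was found to move together over the libraries: none of the 6 pairs of family sums passed a correlation test. Between miR397 and miR398, Pearson's r was -0.384 (exact permutation p = 0.298, adjusted p = 0.695 over 6 pairs) and Spearman's rho -0.350 (exact permutation p = 0.359, adjusted p = 0.791) over the 9 libraries, and r was 0.07 without control replicates 2 and 3. On deviations from the treatment means, as a description, the same pair gave an r of 0.663, the opposite sign. It was 0.462 without DTT replicate 1 and control replicate 2. These deviations sum to 0 within each treatment, so free permutation gives no exact p for them. Both treatments had a higher mean of miR398 and a lower mean of miR397 than the control, but the correlation over the 9 libraries did not pass. Within treatments the 2 families shared their lowest library in DTT with TUDCA (replicate 1) and their highest in DTT (replicate 1). In the control, replicate 1 was the highest in miR398 and the lowest in miR397. A tendency within treatments was not tested. Between miR398 and miR408, r was 0.366 (exact permutation p = 0.347, adjusted p = 0.695) and -0.388 without replicates 2 and 3 of DTT with TUDCA. The pairs with miR528 rest on its 2 reads, and r lay at -0.05 with miR397, -0.116 with miR398 and -0.357 with miR408, with adjusted permutation p of 0.695 or more. Between miR397 and miR408 r was 0.149 (exact permutation p = 0.715, adjusted p = 0.875).

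**Figure D4:**
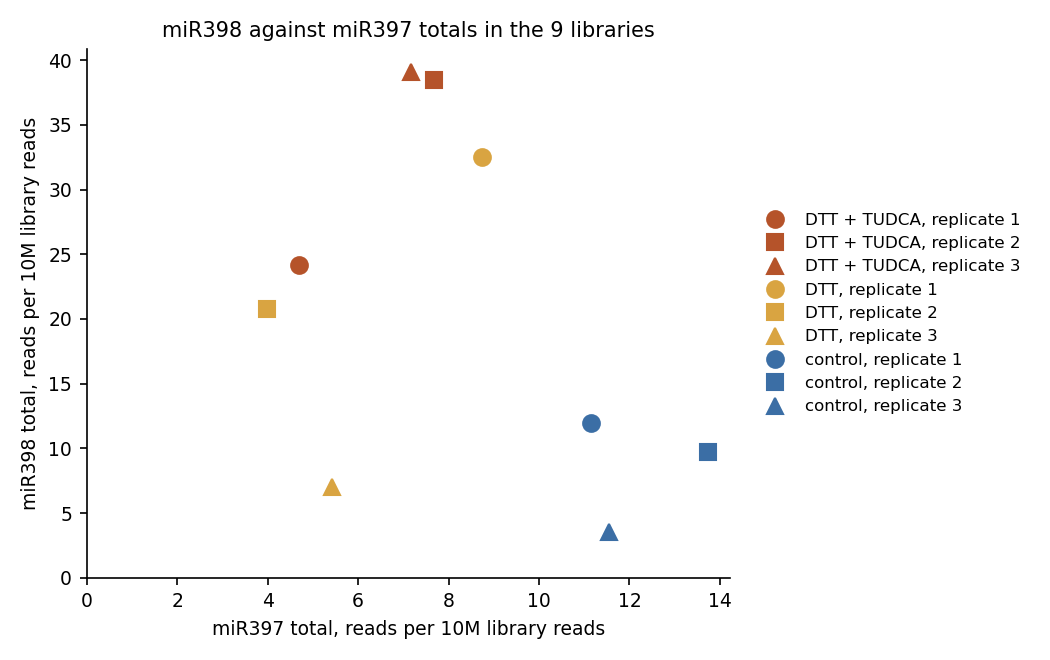
The miR398 total against the miR397 total in each of the 9 libraries, both in reads per 10M library reads, with colours for treatments and shapes for replicate numbers. The libraries of DTT with TUDCA lie to the upper left, at 24.2 to 39.1 for miR398, DTT replicate 3 lies low on both axes, and the control libraries lie to the lower right, at 3.55 to 12.0.

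The balance between the families was also set out as the log2 ratio of the miR398 sum to the miR397 sum in each library, after adding 0.5 reads to both, a measure chosen after the values were seen. As merged here, it stood at 2.28, 2.27 and 2.38 in DTT with TUDCA, at 1.85, 2.27 and 0.341 in DTT, and at 0.0962, -0.485 and -1.58 in the control. All 6 treated libraries lay above all control libraries. The mean difference was 2.97 between DTT with TUDCA and the control and 2.15 between DTT and the control. The two-sided exact permutation p was 0.1 for both (0.15 adjusted over 3 comparisons), the smallest that 3 against 3 libraries allow. For DTT with TUDCA this p was fixed beforehand, since miR398 lay above and miR397 below the control in all its libraries. It therefore adds nothing to the family values. How many other pairs of families separate in this way was not counted. Between DTT with TUDCA and DTT the mean difference was 0.82 and the exact permutation p 0.2. DTT replicate 3 had the lowest ratio of the treated libraries. Taken over the 3 strongest signals alone, the log2 ratio was 2.28, 3.40 and 2.72 in DTT with TUDCA, 2.57, 3.41 and 2.66 in DTT, and 0.0, -0.11 and -1.08 in the control. DTT replicate 3 then lay among the other treated libraries, and DTT with TUDCA differed from DTT by -0.08 (exact permutation p = 0.9). The level of the family ratio depends on the merging. Merged at 5%, miR397 held 30, 22 and 37 reads in DTT with TUDCA, where miR398 held 31, 50 and 49. In DTT miR397 then held 35, 13 and 11 reads and miR398 41, 26 and 9. In the control miR397 held 61, 62 and 45 and miR398 15, 12 and 4. The ratio was not computed with that merging.

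For comparison, 5 other nutrient microRNA families were taken as a list. Of these, miR395, a sulfate microRNA that targets ATP sulfurylases, and miR399 and miR827, both phosphate microRNAs, were tested. The copper microRNA miR857 of Arabidopsis had 1 read, in the control, and miR1444, known from Populus, was not listed. None of the 3 tested sums was called by edgeR or DESeq2 in any comparison, and miR395 alone had an unadjusted edgeR p under 0.05, at 0.00726 for DTT with TUDCA and 0.0238 for DTT against the control. The miR395 sum averaged 16.9 ± 8.39 reads per 10M in DTT with TUDCA, 16.1 ± 9.21 in DTT and 5.85 ± 1.18 in the control (SD, n = 3 each), with an adjusted p of 0.0609 for DTT with TUDCA and 0.204 for DTT against the control in edgeR. miR399 averaged 9.10 ± 2.40 in DTT with TUDCA, 7.36 ± 3.58 in DTT and 5.42 ± 4.00 in the control. miR827 averaged 23.5 ± 5.82 in DTT with TUDCA, 20.3 ± 8.82 in DTT and 23.8 ± 9.72 in the control (SD, n = 3 each). Whether miR398 differed from these families in its change was not tested.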

How the data were processed

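Per the labels' protocols, 5′ adaptors were ligated to RNA with a 5′ monophosphate and the first 36 nt were read on an Illumina HiSeq. The deposited tables, 1 for each pair of treatments, give raw read counts per pair of small RNA and transcript and library, per the file headers. The deposited normalized read numbers are expected counts: raw counts over a divisor that is never under 1. The deposited TPB signal is proportional to them within a library, and the ratio of both gave the library reads. Blank cells were read as 0. The authors' deposited log2 ratio compares mean TPB. For the mapper and target caller, names were not given in the sources used here.

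Lines that share a small RNA or transcript and differ by at most 20% of reads were merged into 1 signal, represented by its strongest line, and 3 pairs listed more than once were left out. A family sum adds all signals with a line of that number. Raw counts of all signals, and of all family sums, were tested with edgeR 4.0.16 (R 4.3.3) between 2 treatments, with library reads as library sizes, a minimum count of 5 and total of 10, and Benjamini-Hochberg adjusted p called under 0.05. The script was tested on simulated data. Alternatives were TMM, median centring, DESeq2 1.42.0, no filter, other merging, 1 fit of all libraries, a replicate block and leaving out each library. Deviations of equal library numbers correlated with r from -0.245 to 0.120, and those of unequal numbers from -0.167 to 0.200. Libraries were not paired in the main fit. Such weak correlations cannot decide whether equal numbers pair the libraries. Signals with 10 or more reads, the strongest of each family, and any with a tae name and at least 5 reads were named with their values. The members and lists were chosen with earlier results of these data known.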

Additional observations from a re-analysis of the deposited data

How the results depend on the processing

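Between DTT with TUDCA and the control, 2 member signals were called, and 1 (on 2AL) was called with TMM scaling, median centring, DESeq2, no filter on low counts and 1 fit of all 9 libraries. Leaving out each library in turn gave 1 to 2 calls. In that comparison 1 member family sum was called, miR398, with 2 when lines were merged at 5% (miR397 joined it) and 0 to 1 when each library was left out. The other comparisons had 0 member calls in every setting. Over all signals, the 16 calls of DTT with TUDCA against the control became 9 to 31 in the other settings and 8 to 24 without 1 library, the 5 of DTT against the control 1 to 7 and 0 to 5, and the 2 of DTT with TUDCA against DTT 1 to 3 and 0 to 1. Over all family sums these counts were 12 (2 to 18 and 6 to 14), 0 (0 to 10 and 0 to 3) and 0 (0 and 0 to 1).

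The miR397 totals depend on the merging, since near-copies are then counted apart. Merged at 5% they averaged 23.3 in DTT with TUDCA, 15.6 in DTT and 46.2 in the control, and with only identical lines merged 31.9 in DTT with TUDCA, 19.8 in DTT and 62.4 in the control. By the authors' normalized number they averaged 4.83 in DTT with TUDCA, 4.56 in DTT and 8.80 in the control. The miR397 change between DTT with TUDCA and DTT turned to -0.17 with TMM, -0.10 after centring, and ranged from -0.12 to 0.46 when each library was left out. The correlation of miR397 and miR398 turned to 0.663 on deviations from treatment means, and that of miR397 and miR528 to 0.00097 with normalized reads. With the replicate block, 2 member signals and 1 family sum (miR398, log2 1.99, adjusted p = 0.0149) were called for DTT with TUDCA against the control and 0 elsewhere, and over all signals the calls of DTT against the control went to 1. The median log2 fold change of all signals was 0.30 for DTT with TUDCA and -0.08 for DTT against the control, and 0.26 for DTT with TUDCA against DTT. The sums of miR408 and miR528 failed the filter on low counts, and without it neither was called in any comparison (adjusted p from 0.634 to 0.990, edgeR).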
